A study of Homo sapiens with 6 samples.

Results

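Heterochromatin proteins and DNA methyltransferases were followed in WI-38 fibroblasts that overexpressed RASv12 and are labelled senescent (n = 3 arrays), set against growing WI-38 fibroblasts labelled wild type (n = 3 arrays). The group was defined by name and holds 10 genes, CBX1, CBX3, CBX5, SUV39H1, DNMT1, DNMT3A, DNMT3B, UHRF1, HELLS and TRIM28. Every probe set annotated to one of them was used, which gave 11 probe sets for 9 genes, out of 22215 probe sets and 11963 named genes in all. No probe set of the table was annotated to UHRF1, so UHRF1 was not analysed here. CBX3 and CBX5 had 2 probe sets each and the other 7 genes had 1.

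WI-38 is a normal diploid fibroblast strain from human fetal lung, and RASv12 is a constitutively active RAS GTPase whose source gene the labels do not name. Both groups were grown at 3% oxygen, and every sample went through 2 rounds of amplification. The protocol text describes retroviral infection, and no label says whether the growing cells received an empty vector. Without such a vector, an effect of infection cannot be told apart from one of RASv12. The labels give Cy5 for growing cells and Cy3 for RASv12 cells although the probe set names belong to a single-colour Affymetrix array, so a dye effect, if there was one, and the group cannot be told apart. No label states that the samples of a group were separate cultures, so the spread behind each p-value may be technical.

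Heterochromatin is the compact, mostly silent part of the genome. Its histone H3 carries methyl groups on lysine 9, which the enzyme SUV39H1 writes and which the 3 heterochromatin protein 1 (HP1) paralogs read through a chromodomain. TRIM28, also called KAP1, is the corepressor that zinc finger proteins bring to DNA and that binds HP1. Much of this DNA is also methylated at cytosines before guanines. DNMT3A and DNMT3B place new methyl groups, DNMT1 copies the pattern onto new strands after replication, UHRF1 guides DNMT1 to half-methylated sites, and the remodeller HELLS opens chromatin for the enzymes. Fibroblasts that enter RAS-induced arrest are known for dense nuclear foci of heterochromatin in which HP1 proteins collect.

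The series facts that bear on these genes were few. Array-to-array correlations over all tested probe sets were 0.975 to 0.987 within groups and 0.912 to 0.928 between groups. All 12 measured fibroblast markers lay above the brightest of 27 low bacterial control probe sets, at an intensity of 27.98, on all 6 arrays. VIM, the fibroblast intermediate filament, was at 5131, 4399 and 4485 in RASv12 replicates 1 to 3 and at 4774, 4730 and 5583 in control replicates 1 to 3. Of these markers 9 fell and 1 rose in RASv12 cells, and the summed intensity of the list was 8934 to 10482 in RASv12 samples and 20547 to 23129 in control samples. COL1A2 (-1.45), COL1A1 (-1.83) and the proteoglycan gene DCN (-3.28) were among the falls, as log2 changes. Above the low controls on all 6 arrays were 1 of 10 epithelial markers (KRT18), 0 of 7 endothelial and 0 of 7 measured leukocyte markers. EPCAM, CDH5 and PTPRC, which define those cell types, lay within the low controls on all 6 arrays. Other markers of these lists were called at an adjusted p under 0.05 by limma. Of the epithelial genes, 2 were lower (KRT19 and KRT8) and 1 higher (SFTPB). Of the endothelial genes, 1 was lower (TEK) and 1 higher (TIE1), and 1 leukocyte gene was higher (MS4A1, within the low controls). Among all genes, 15.3% were called lower and 13.8% higher. TIE1, an endothelial receptor kinase, read 40.4, 44.3 and 59.9 in RASv12 samples, against 0.892, 1.58 and 1.56 in control samples, and was at least 1.70-fold higher (limma adjusted p = 4.4e-05). Mean intensity was 26.4 in RASv12 and 78.6 in control samples for TEK, 17.6 and 52.7 for KRT19, and 57.7 and 33.6 for SFTPB. The part of such cells in the values that follow was not tested. The summed intensity was 268 to 302 in RASv12 and 277 to 308 in control samples for the epithelial list, 109 to 168 and 107 to 135 for the endothelial list, and 54 to 119 and 37 to 96 for the leukocyte list.

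In RASv12 cells, 3 of the 9 measured genes fell, none rose and 6 did not pass. The falls were in the HP1 genes CBX1 and CBX5 and in TRIM28, with mean intensities at 56.9%, 45.2% and 61.1% of the control means. CBX5 was counted by its brighter probe set, 212126_at, while 209715_at was at 94.3% and did not pass. The third HP1 gene, CBX3, the histone methyltransferase gene SUV39H1, the 3 DNA methyltransferase genes and HELLS did not pass, and DNMT3A and HELLS lay within the low bacterial controls on every array. In these bulk samples fewer cells of a type and less RNA per cell cannot be told apart. Over all genes, 15.3% were called lower and 13.8% higher at an adjusted p under 0.05 by limma, with 13.0% lower and 11.3% higher over probe sets. The median log2 change, on the log2(intensity + 16) scale used for every log2 change here, was -0.41 over the 9 genes, each by its brightest probe set, and likewise -0.41 over the 7 without DNMT3A and HELLS, against 0.02 over all genes. All 9 probe sets outside DNMT3A and HELLS had a change below 0, with 4 of 11 free of overlap between the groups (20.0% of all probe sets were lower without overlap). Scaling the arrays to 18 hybridization control probe sets, which had a mean log2 difference of -0.34 (RASv12 minus control), moved the median of all genes to 0.20 and that of the 9 genes and of the 7 to -0.10, and turned the sign for both CBX3 probe sets and for 1 CBX5 probe set.

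**Figure D1:**
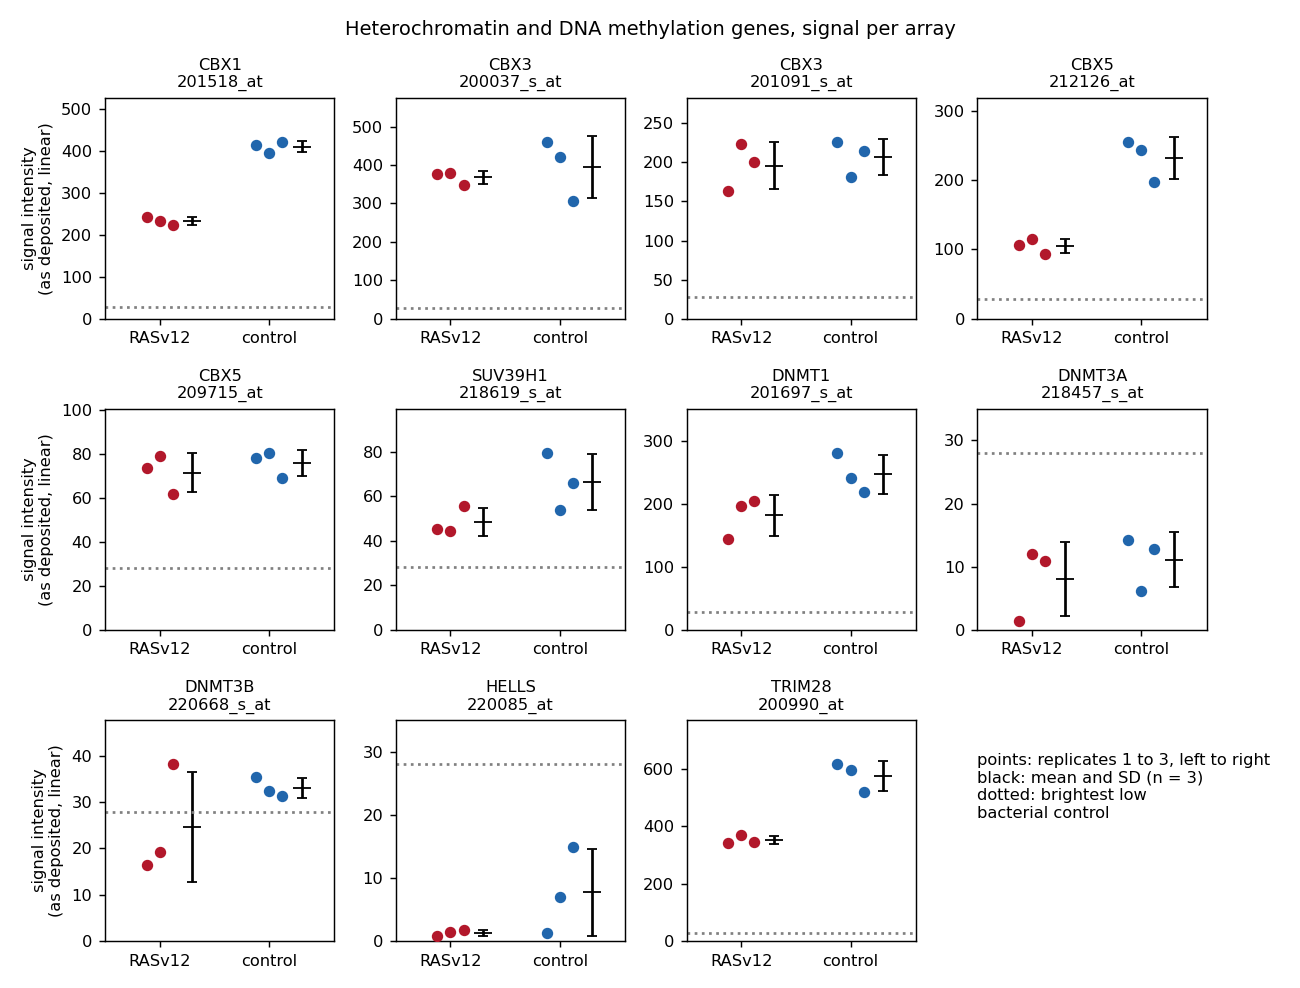
Deposited signal intensity (linear) of the 11 probe sets on each array, RASv12 samples in red and control samples in blue, with mean and SD (n = 3) in black. CBX1, TRIM28, CBX5 on 212126_at and DNMT1 show no overlap, while all DNMT3A and HELLS points lie under the dotted line, the brightest low bacterial control at 27.98.

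The 3 HP1 genes differed in their calls. CBX1 encodes HP1 beta and lies at chr17:48070059-48101478 in GRCh38.p14. Its intensity was 243, 232 and 224 in RASv12 replicates 1 to 3, against 413, 395 and 421 in control replicates 1 to 3. Each RASv12 sample lay well below every control sample, with little spread inside either group. The mean was 233 ± 9.58 in RASv12 and 409 ± 13.5 in control samples (SD, n = 3 each). CBX1 fell by 0.79 on the log2 scale (SE 0.085, limma adjusted p = 9.1e-04 over all probe sets), and 6.51% of all probe sets had a lower change. It also passed under each of the 16 alternatives run for it, with log2 changes from -0.83 to -0.45.

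CBX5 encodes HP1 alpha and lies at chr12:54230942-54280122. On its brighter probe set, 212126_at, intensity was 106, 115 and 93.6 in RASv12 replicates 1 to 3 and 255, 244 and 197 in control replicates 1 to 3. The groups were far apart, and the lowest control sample was well above the highest RASv12 sample. CBX5 fell by 1.01 on this probe set (SE 0.13, limma adjusted p = 0.0022), the largest change among the 9 probe sets outside DNMT3A and HELLS. Its other probe set, 209715_at, read 73.6, 79 and 61.7 in RASv12 samples and 78, 80.2 and 69 in control samples. These groups overlapped, at a log2 change of -0.01 (95% interval -0.31 to 0.29, adjusted p = 0.98). The change differed between the 2 CBX5 probe sets by -1.0 (SE 0.068, 212126_at minus 209715_at). The per-array differences did not overlap between groups, and the exact two-sided permutation p was 0.1, the smallest that 3 against 3 samples can give. That comparison of probe sets was chosen after their values were seen. Averaging both probe sets left CBX5 called at -0.51 (SE 0.12, limma adjusted p = 0.019). Which transcript ends each probe set reads was not tested, nor was the part of the 2 rounds of amplification in their difference.

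CBX3 encodes HP1 gamma and lies at chr7:26201443-26213607. Probe set 200037_s_at read 376, 380 and 349 in RASv12 samples and 460, 420 and 306 in control samples, and 201091_s_at read 164, 223 and 201 in RASv12 samples and 226, 181 and 214 in control samples. On both, the RASv12 samples lay inside the range of the control samples or overlapped it. The log2 changes were -0.10 (95% interval -0.48 to 0.28, limma adjusted p = 0.72) and -0.08 (-0.42 to 0.27, adjusted p = 0.77). The intervals still allow a fall of up to 0.48 on the log2 scale. Both probe sets carry the suffix that marks probes shared between transcripts, and RefSeq lists 10 pseudogenes named after CBX3, 5 after CBX1 and 1 after CBX5, so signal from such copies cannot be told apart from the gene's.

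The paralogs were compared through the difference of their log2 values on each array, for 6 pairs in all with exact two-sided permutation tests. CBX1 changed by -0.69 (SE 0.19) relative to CBX3, and CBX3 by 0.91 (SE 0.093) relative to CBX5. In both pairs the 3 RASv12 differences lay apart from the 3 control differences, with exact p = 0.1, the smallest possible, and 0.3 after Benjamini-Hochberg adjustment. No pair can therefore pass at this size. CBX1 and CBX5 differed by 0.22 (SE 0.15, exact p = 0.3) with overlap between the groups, a value that became -0.28 with the probe sets of a gene averaged. That averaging also brought CBX3 minus CBX5 to 0.42.

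The sequence upstream of the HP1 genes is shown because CBX1 and CBX5 fell while CBX3 did not pass. Some forms of E2F sites, which E2F factors bind in genes of S phase, were also searched in that sequence. Each window runs from 250 bases before to 50 bases after a transcript start in RefSeq (GRCh38.p14), read 5′ to 3′ along the gene. Capitals mark TTTCCCGC, TTTCGCGC, TTTGCCGC or TTTGGCGC on either strand. The windows are chr17:48101137-48101436 on the minus strand for CBX1, chr12:54280073-54280372 on the minus strand for the most upstream of 3 CBX5 starts, and chr7:26201193-26201492 on the plus strand for CBX3.
CBX1: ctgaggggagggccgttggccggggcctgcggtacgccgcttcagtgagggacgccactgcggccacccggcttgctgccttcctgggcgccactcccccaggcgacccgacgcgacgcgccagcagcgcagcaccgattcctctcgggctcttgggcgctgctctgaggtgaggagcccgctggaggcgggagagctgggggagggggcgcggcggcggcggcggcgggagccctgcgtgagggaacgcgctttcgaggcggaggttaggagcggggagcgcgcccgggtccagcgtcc
CBX5: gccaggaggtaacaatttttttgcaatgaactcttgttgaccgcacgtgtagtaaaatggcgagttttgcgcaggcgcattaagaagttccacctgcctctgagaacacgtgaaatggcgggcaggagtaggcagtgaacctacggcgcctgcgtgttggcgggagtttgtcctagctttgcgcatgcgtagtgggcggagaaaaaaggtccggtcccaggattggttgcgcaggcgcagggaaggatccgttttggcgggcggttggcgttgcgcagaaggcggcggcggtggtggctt
CBX3: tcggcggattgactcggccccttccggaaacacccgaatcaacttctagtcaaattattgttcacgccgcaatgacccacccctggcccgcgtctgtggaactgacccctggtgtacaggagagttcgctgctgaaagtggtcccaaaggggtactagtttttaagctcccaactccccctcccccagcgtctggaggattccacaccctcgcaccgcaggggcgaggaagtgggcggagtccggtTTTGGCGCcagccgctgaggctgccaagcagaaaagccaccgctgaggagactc
CBX3 holds TTTGGCGC across its transcript start, from base -4 to base 3 where the first transcript base is 0. None of the E2F-type words searched were in the CBX1 window or in the 3 CBX5 windows. Other forms of E2F sites were not searched. Near matches were not searched for as a class. The CBX5 window shown holds TTTGGCGG, which differs from the searched TTTGGCGC in its last letter. The CBX1 window holds GCGGGAGA, which differs in a single letter from GCGGGAAA, the opposite-strand reading of TTTCCCGC. The CBX5 window shown holds an inverted CCAAT at bases -29 to -25, and the CBX1 window holds none. Among all promoter windows given by RefSeq, 3.31% hold the E2F-type letters and 34.6% hold CCAAT on either strand. CpG dinucleotides numbered 38 in the CBX1 window, 25 in this CBX5 window and 19 in the CBX3 window, against a median of 14 over all windows. The other CBX5 windows held 6 and 4, under that median.

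TRIM28, the corepressor that recruits HP1 and the H3 lysine 9 methyltransferase SETDB1, lies at chr19:58544064-58550715. Its intensity was 341, 369 and 346 in RASv12 replicates 1 to 3, against 616, 595 and 518 in control replicates 1 to 3. The RASv12 samples were all lower and closer together than the control samples, with a mean of 352 ± 15 in RASv12 and 576 ± 51.7 in control samples (SD, n = 3 each). TRIM28 fell by 0.71 on the log2 scale (SE 0.11, limma adjusted p = 0.0040). With scaling to the hybridization controls the change was -0.36 with adjusted p = 0.065, which did not pass. TRIM28 passed under the other 15 alternatives run for it, with adjusted p from 8.5e-04 to 0.023.

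SUV39H1 trimethylates H3 lysine 9 in constitutive heterochromatin and lies at chrX:48695554-48709016. It read 45.3, 44.3 and 55.6 in RASv12 samples and 79.3, 53.9 and 65.8 in control samples. The highest RASv12 sample exceeded the lowest control sample. The log2 change of -0.28 (SE 0.13, 95% interval -0.60 to 0.04) had a limma adjusted p of 0.19, and it did not pass under any of the 15 alternatives run for it (adjusted p from 0.087 to 0.74). It was -0.17 without control replicate 1 or with a pseudocount of 64, and -0.08 with scaling to the hybridization controls.

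**Figure D2:**
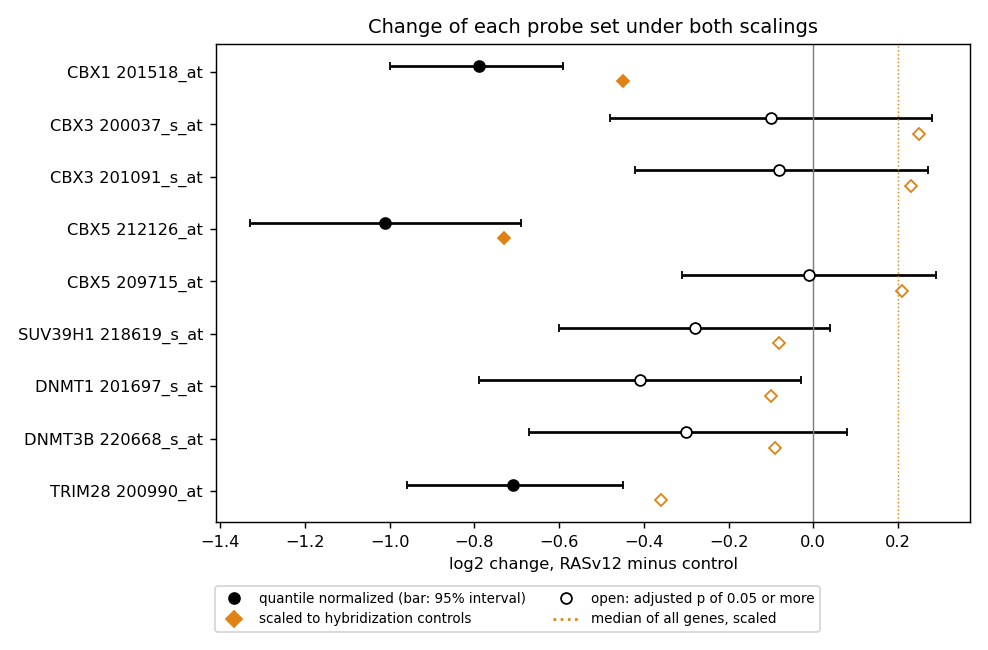
Log2 change (RASv12 minus control) of the 9 probe sets outside DNMT3A and HELLS, as circles with 95% intervals after quantile normalization and as orange diamonds after scaling to the hybridization controls, filled where the adjusted p was under 0.05. CBX1 and CBX5 on 212126_at are filled under both, TRIM28 under the quantile normalization alone, and the dotted line marks the median of all genes under the second scaling, 0.20.

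Among the DNA methyltransferases no gene passed. DNMT1, which copies methylation at replication, lies at chr19:10133346-10194953. It read 144, 197 and 204 in RASv12 replicates 1 to 3, against 280, 241 and 219 in control replicates 1 to 3. All 3 RASv12 samples were below all 3 control samples, by a narrow gap between the highest RASv12 and the lowest control sample. The mean was 182 ± 32.6 in RASv12 and 246 ± 30.8 in control samples (SD, n = 3 each). The log2 change of -0.41 (SE 0.16, 95% interval -0.79 to -0.03) had a limma p of 0.038 before and 0.12 after adjustment over all probe sets. The adjusted p ran from 0.058, without the dimmest 50% of probe sets, to 0.73, with scaling to the hybridization controls, over 15 alternatives. The change was -0.26 without RASv12 replicate 1 and -0.10 with that scaling.

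DNMT3B, a de novo methyltransferase, lies at chr20:32762385-32809356 and read 16.5, 19.2 and 38.2 in RASv12 samples, against 35.4, 32.4 and 31.4 in control samples. RASv12 replicates 1 and 2 lay within the low bacterial controls, while RASv12 replicate 3 was the brightest of the 6. The log2 change was -0.30 (SE 0.16, limma adjusted p = 0.24), and it was -0.48 with adjusted p = 0.021 without RASv12 replicate 3. DNMT3A, the other de novo enzyme, lies at chr2:25227874-25342590 and read 1.34, 12 and 10.9 in RASv12 samples and 14.3, 6.12 and 12.8 in control samples. As all 6 values lay within the low bacterial controls, its fitted change is not read as a fold, and the 2 pairs with DNMT3A are given no value. DNMT1 minus DNMT3B was -0.12 (SE 0.17, exact permutation p = 0.6), with overlap between the groups.

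HELLS, the remodeller that DNA methylation of repeats depends on in mouse, lies at chr10:94545788-94613905. It read 0.741, 1.39 and 1.65 in RASv12 samples and 1.21, 6.98 and 14.9 in control samples. The RASv12 values were all close to 0 and the control values were spread widely, and since every array lay within the low bacterial controls the fitted change is not read as a fold. Its limma adjusted p was 0.19, and 0.030 without control replicate 1.

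The windows of DNMT1 and HELLS are shown for the same letters, since DNMT1 is the copying enzyme of S phase and HELLS held 2 matches in 1 window. They are chr19:10194904-10195203 on the minus strand for DNMT1 and chr10:94545538-94545837 on the plus strand for HELLS, in GRCh38.p14.
DNMT1: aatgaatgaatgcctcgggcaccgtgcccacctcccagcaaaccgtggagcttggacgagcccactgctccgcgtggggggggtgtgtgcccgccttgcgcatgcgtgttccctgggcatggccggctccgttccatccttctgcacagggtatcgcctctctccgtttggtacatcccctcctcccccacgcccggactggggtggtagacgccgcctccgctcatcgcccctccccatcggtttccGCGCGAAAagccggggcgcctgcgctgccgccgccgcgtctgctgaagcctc
HELLS: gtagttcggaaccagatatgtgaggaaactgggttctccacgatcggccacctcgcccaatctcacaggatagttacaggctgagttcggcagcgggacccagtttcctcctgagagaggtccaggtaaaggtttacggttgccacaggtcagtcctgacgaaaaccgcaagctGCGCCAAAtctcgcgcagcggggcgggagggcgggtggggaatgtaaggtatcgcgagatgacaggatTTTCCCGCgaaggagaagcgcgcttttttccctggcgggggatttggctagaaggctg
DNMT1 holds TTTCGCGC, read on the opposite strand, from base -2 to base 5. HELLS holds TTTGGCGC on the opposite strand from base -76 to base -69, and TTTCCCGC on its own strand from base -8 to base -1. Of the 9 genes with a window in the table, which include the unmeasured UHRF1 and leave out TRIM28, 4 held E2F-type letters, namely CBX3, DNMT1, UHRF1 and HELLS, against 3.99% of all genes with a window. A gene counted if any of its windows held them, and genes differ in their number of windows. By window, 5 of 19 held them, against 3.31% of all windows. CHR-type letters (TTTGAA or TTCGAA, either strand), known from promoters of mitotic genes, were in 1 of the 9 genes, in a DNMT3A window, against 19.5% of all genes. These matches are letters in a window and not measured sites.

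**Figure D3:**
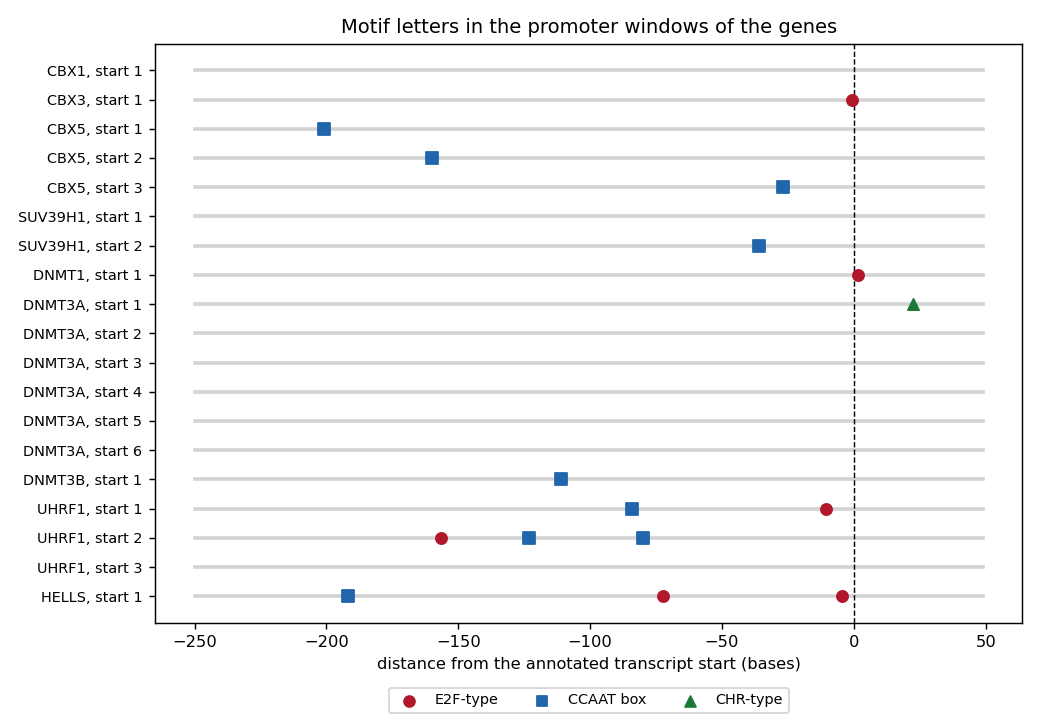
Positions of E2F-type, CCAAT and CHR-type letters in the 19 promoter windows of 9 genes, by distance in bases from the annotated transcript start (dashed line at 0). E2F-type letters lie at the start in CBX3 and DNMT1 and just before it in HELLS, and CBX1 holds no match to any of the 3 motifs.

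Replication and proliferation genes were read from the same arrays, since DNMT1, UHRF1 and HELLS serve dividing cells. All 20 of a list of S phase and mitosis genes fell in RASv12 cells, against 15.3% of all genes called lower. This list too was chosen with earlier results of these data known. Its median log2 change was -2.20, or -2.19 with 6 dim genes at their bound, with a range from -3.84 to -0.79. The summed intensity of the list was 1266 to 1336 in RASv12 samples and 6622 to 7211 in control samples. PCNA, the replication clamp that DNMT1 binds, had a mean of 161 in RASv12 and 406 in control samples and fell by 1.27 (limma adjusted p = 9.6e-04). TYMS, thymidylate synthase, had a log2 change of -2.81 (SE 0.12), MCM5, a helicase subunit, of -2.10 (SE 0.088), and TK1, thymidine kinase, of -2.30 (SE 0.099), with limma adjusted p from 1.5e-05 to 1.6e-05. BIRC5, the survivin gene, was within the low controls in all 3 RASv12 samples and at least 13.6-fold lower. CBX5 at -1.01 on 212126_at (-0.01 on 209715_at) lay inside this range and CBX1 at -0.79 at its upper end. TRIM28 at -0.71, DNMT1 at -0.41 and CBX3 at -0.10 lay above it. The upper end of the range was CDT1, within the low controls in all 3 RASv12 samples and in 1 control sample. Of the 12 list genes above the low controls on all 6 arrays, MCM3 fell least, at -1.21. CBX5 and CBX1 fell less than that. Whether the changes of CBX5, CBX1, TRIM28, DNMT1 and CBX3 differ from those of the list was not tested, nor was the part of arrested division in them.

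Partners of HP1 and KAP1 were called lower more often than higher. Among 20 measured genes there were 9 falls and 2 rises, while 9 missed the threshold, and the median log2 change was -0.43, against 15.3% and 13.8% of all genes called lower and higher. With scaling to the hybridization controls 6 fell and 2 rose at a median of -0.13, against 8.78% and 23.6% of all genes and their median of 0.20. LBR, the inner nuclear membrane receptor that binds HP1, read 42.5, 35.4 and 56 in RASv12 samples, against 220, 178 and 160 in control samples. It fell by 1.70 (SE 0.16, limma adjusted p = 3.8e-04), with every RASv12 sample far below every control sample. RBBP7, a histone-binding subunit of deacetylase complexes, fell by 0.93 (SE 0.098, adjusted p = 6.6e-04) and CHD3, a NuRD remodeller that binds KAP1, by 0.73 (SE 0.093, adjusted p = 0.0016). CHAF1B, a subunit of the chromatin assembly factor that loads histones behind the replication fork, was within the low controls in all 3 RASv12 samples and at least 1.97-fold lower (adjusted p = 0.0022). In the other direction, SP100, a nuclear body protein that binds HP1 and that interferon induces, read 449, 409 and 424 in RASv12 samples, against 121, 100 and 140 in control samples, and rose by 1.71 (SE 0.13, adjusted p = 1.6e-04). DAXX, the chaperone that deposits histone H3.3 with ATRX, rose by 0.83 (SE 0.14, adjusted p = 0.0048).

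Among other writers of histone methylation and their cofactors, the writer EHMT2 fell and the cofactor ATF7IP rose. Of 9 measured genes for H3 lysine 9 and H4 lysine 20 enzymes and their cofactors, 1 fell, 1 rose and 7 missed the threshold, against 15.3% of all genes called lower and 13.8% higher. The median log2 change was -0.13 (-0.23 without the gene dim in both groups), or 0.08 with scaling to the hybridization controls. That scaling put the median of all genes at 0.20. EHMT2, which encodes the G9a enzyme for dimethylation of H3 lysine 9, read 47, 36.6 and 42.8 in RASv12 samples, against 95.5, 80.2 and 82.3 in control samples. It fell by 0.77 (SE 0.13, limma adjusted p = 0.0045), a call that was lost with its probe sets averaged. ATF7IP, the stabilising partner of SETDB1, rose by 0.35 (SE 0.091, adjusted p = 0.029), a call that held in 7 of 17 alternatives. It was lost on the values as deposited, with median centring and without each single sample except control replicate 2. SETDB1 itself was at -0.33 (SE 0.25, adjusted p = 0.39).

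The erasers of H3 lysine 9 methylation had 2 of 9 higher, 1 lower and 6 not passed, against 13.8% of all genes called higher and 15.3% lower. The median of the erasers was -0.11, or 0.22 with scaling to the hybridization controls, which put the median of all genes at 0.20. KDM3A, a demethylase that hypoxia induces, rose by 0.44 (SE 0.11, limma adjusted p = 0.023), and its relative JMJD1C rose by 0.47 (SE 0.12, adjusted p = 0.029). PHF2 was within the low controls in RASv12 samples and at least 1.70-fold lower (adjusted p = 0.042). None of these 3 calls held with a pseudocount of 1 or with the replicate number as a block. KDM3A was also lost without RASv12 replicate 1 or 2 or control replicate 2 or 3, JMJD1C without any single sample except RASv12 replicate 1, and PHF2 without any single sample except control replicate 1.

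Readers of methylated DNA and the enzymes of demethylation had 2 of 12 higher, 2 lower and 8 not passed. Of all genes, 13.8% were called higher and 15.3% lower. The median log2 change was 0.01 (0.06 over 8 genes, with those dim in both groups left out and 1 at its bound). After scaling to the hybridization controls, the median of the 12 genes was 0.31, against 0.20 over all genes. TDG, the glycosylase that removes oxidised methylcytosine, read 115, 114 and 101 in RASv12 samples, against 74.7, 60.6 and 69.9 in control samples, and rose by 0.64 (SE 0.11, limma adjusted p = 0.0056). MBD1, a methyl-CpG binding repressor, rose by 0.38 (SE 0.11, adjusted p = 0.044), a call that was lost without any 1 of the 6 samples. APOBEC3B, a cytidine deaminase, was within the low controls in all 3 RASv12 samples and at least 5.75-fold lower (adjusted p = 3.5e-05). TET3, a methylcytosine oxidase, was called lower (adjusted p = 0.0099) at mean intensities of 7.49 in RASv12 and 16.8 in control samples, both within the low controls, and its fitted change is not read as a fold.

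**Figure D4:**
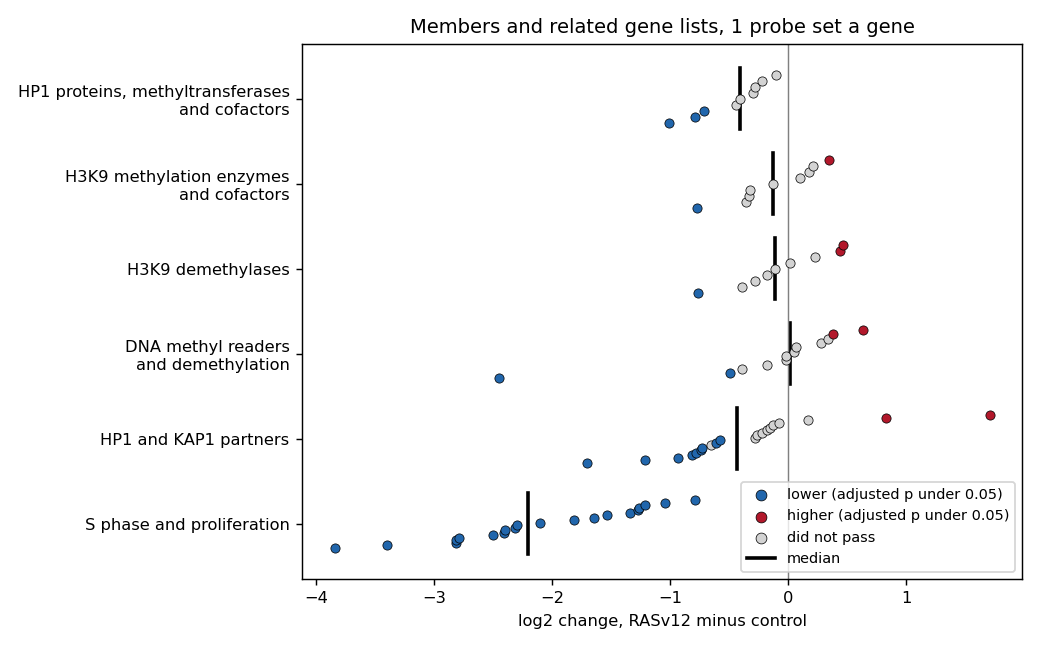
Log2 change (RASv12 minus control) of each gene, 1 probe set a gene, for the 9 heterochromatin and DNA methylation genes and for 5 related lists, blue where lower and red where higher at an adjusted p under 0.05, with the median as a black line and genes within the low controls drawn at their fitted change. The 20 S phase and proliferation genes are all blue with a median of -2.20, while the 9 genes at the top have a median of -0.41 and 3 blue points.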

How the data were processed

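The authors deposited 1 table of linear signal intensity per probe set and array, made with MAS5, an Affymetrix summary of probes, per the submitters' processing notes. Its version is not given in the sources used here. The table holds 22283 probe sets, of which 68 are controls. After trimming 2% at each end the mean intensity was 100 on every array, so the deposited values had been brought to 1 brightness. The number of arrays limits the precision. The scale of the tests was log2(value + 16), on which changes of dim genes are understated. Because array medians ran from 5.40 to 5.63 on that scale, a gap over 0.1, quantile normalization was applied. All 22215 non-control probe sets were fitted with limma 3.58.1 (lmFit and eBayes, R 4.3.3), Benjamini-Hochberg adjusted over all probe sets, or over 11963 genes for gene counts and listed genes, at a threshold of 0.05. A gene was represented by its probe set with the highest mean intensity. Symbols came from the platform annotation, updated through RefSeq for GRCh38.p14, and gene coordinates are RefSeq's. Single differences used exact permutation tests (SciPy 1.17.1). The 95% intervals come from the limma fit. A group is within the low bacterial controls where its intensity was at or under 27.98. A fold is written as "at least" where all 3 samples of 1 group lay there, from mean log2 deposited intensities with dim values raised to that level. The procedure was tested on simulated data.

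The genes and lists were chosen with earlier results of these data known. Named genes were all 10 members, up to 4 called genes of each related list with the smallest p in its main direction and up to 2 in the other, and the 4 brightest fibroblast markers. PCNA, CDT1, MCM3, SETDB1 and the epithelial, endothelial and leukocyte markers other than KRT18 fall outside that rule and were named after their values were seen. Alternatives were 2 other pseudocounts, 3 other normalizations, 2 filters on dim probe sets, another variance prior, a replicate block, 2 other choices of probe sets and the leaving out of each of the 6 samples. Same-numbered samples deviated from their group means with correlations of -0.226, -0.0282 and -0.07 for replicates 1 to 3, so the numbers were not taken to pair samples.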

Additional observations from a re-analysis of the deposited data

How the results depend on the processing

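The count of genes called lower was 3 in 14 of 17 alternatives. It was 2 with scaling to the hybridization controls, where TRIM28 did not pass, and 4 without RASv12 replicate 3 (DNMT3B added) and without control replicate 1 (HELLS added, within the low controls). No member was called higher under any of them. The replicate block left 3 called, with CBX1 at -0.79, CBX5 at -1.01 and TRIM28 at -0.71. Probe sets with the suffix _at alone were left for 4 of the 9 genes, and the filters on dim probe sets left 8 and 6 of them. Scaling to the hybridization controls turned the sign of CBX3 to 0.25 on 200037_s_at and 0.23 on 201091_s_at and of CBX5 on 209715_at to 0.21, none of them called. The sign also turned without single samples, over a range of -0.27 to 0.02 and -0.17 to 0.04 for the CBX3 probe sets and -0.08 to 0.10 for that CBX5 probe set. CBX1 minus CBX5 became -0.28 with probe sets averaged. With a pseudocount of 1, DNMT1 minus DNMT3B became 0.03. Pairs with DNMT3A, within the low controls on every array, are given no value. Leaving out samples in turn gave 3 to 4 genes lower, with CBX1 from -0.82 to -0.77, CBX5 from -1.12 to -0.93 and TRIM28 from -0.78 to -0.65. CBX1 minus CBX3 then ran from -0.81 to -0.51 and CBX3 minus CBX5 from 0.85 to 0.96, while that pair was 0.42 with probe sets averaged and 0.70 with a pseudocount of 64.

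The S phase and proliferation count stayed at 20 lower in 15 of 17 alternatives, and that of the HP1 and KAP1 partners ran from 6 to 10 lower. Counts over the other 3 related lists were small and moved more. Of the H3 lysine 9 demethylases (2 higher, 1 lower) 0 were higher and 0 lower with a pseudocount of 1 and with the replicate block, 1 higher and 2 lower with a variance trend and on the values as deposited, 0 lower with scaling to the hybridization controls, 2 lower without the dimmest 50% of probe sets, and 1 higher without the suffixes _s_at and _x_at. Of the histone methylation enzymes (1 higher, 1 lower) 0 were higher with a pseudocount of 1, on the values as deposited, with median centring and with the replicate block, and 0 higher and 0 lower with probe sets averaged. Of the readers and demethylation genes (2 higher, 2 lower) 1 was higher with a pseudocount of 1, on the values as deposited, with the replicate block, with probe sets averaged and without the dimmest 25% of probe sets, 1 was lower without the dimmest 50%, and 0 were higher and 1 lower without those suffixes. The counts of that list also grew, to 3 higher with scaling to the hybridization controls and to 3 lower without control replicate 3. Of the HP1 and KAP1 partners (2 higher) 1 was higher without those suffixes. Without single samples the count was 0 to 1 higher and 0 to 1 lower for the demethylases, 0 to 1 higher for the histone methylation enzymes and 1 to 2 higher for the readers. The cause of these changes was not tested, except that without the suffixes _s_at and _x_at fewer genes are tested (13 of the 20 S phase and proliferation genes, all 13 lower).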
